A study of Mus musculus with 2 samples.

Results

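The 4 Ly6 family surface proteins examined were Ly6c1, Ly6a, Ly6e and Ly6c2, chosen by gene symbol among the 31055 genes of each count table. All 4 symbols were present in both tables. Levels were measured by droplet single-cell RNA sequencing of cells sorted as blood endothelial cells (BECs) from tumors of wild-type (WT) mice, with 1 library per tumor model. PyMT is a mammary cancer line derived from MMTV-PyMT mice, and KPC is a pancreatic cancer line from genetically engineered mice. Female C57BL6 mice of 6 weeks had received 100000 PyMT or KPC cells orthotopically, and tumors were taken at 10 days. Neither group carried a treatment beyond the implanted tumor, and the number of mice behind each library was not given in the sources used here. Tumors were digested and, before the sort, depleted of cells positive for CD45, EpCAM, Ter119, podoplanin or Annexin V. With 1 library per model there was no replicate, so no test was possible, and tumor model, library, depth and sort cannot be told apart. All intervals are exact 95% intervals and cover counting error only.

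Ly6 proteins are small, cysteine-rich proteins of the LU domain family that are mostly held on the outer cell surface by a glycosylphosphatidylinositol anchor. Ly6a encodes Sca-1, a marker of mouse stem and progenitor cells that endothelium also carries and that interferon induces. Ly6c1 and Ly6c2 encode closely related forms of the Ly6C antigen, of which Ly6c2 is known from monocytes and Ly6c1 from endothelium. Ly6e is a widely expressed interferon-induced member. In this study Ly6C served as a capillary marker against which venular markers were set.

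The 4 genes lay in 1 stretch of chromosome 15 (GRCm38, as were the submitters' mm10 counts). Ly6e occupied chr15:74955051-74959905 on the plus strand, and Ly6a chr15:74994877-74998031, Ly6c1 chr15:75044018-75048830 and Ly6c2 chr15:75108158-75111970 on the minus strand. No other annotated gene overlapped any of the 4. Ly6c1 and Ly6c2 matched at 387 of 396 coding bases (97.7%), and 35 of the 211 windows of 90 bases in the last 300 transcript bases of Ly6c1 also occurred in Ly6c2. A read from such a window cannot be assigned to 1 of the pair, so the split between Ly6c1 and Ly6c2 is uncertain. By contrast, Ly6c1 shared 82.0% of its coding sequence with Ly6a and 49.9% with Ly6e. The first 120 coding bases of the near-identical pair are shown, with the 6 bases that differ in capitals.
Ly6c1: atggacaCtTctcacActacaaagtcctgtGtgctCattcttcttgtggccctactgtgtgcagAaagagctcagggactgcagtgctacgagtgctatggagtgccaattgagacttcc
Ly6c2: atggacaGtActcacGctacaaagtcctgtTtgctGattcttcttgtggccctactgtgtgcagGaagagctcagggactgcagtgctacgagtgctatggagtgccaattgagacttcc
Of the 4 genes, 2 had an entry in the RefSeq promoter table (GRCm38.p6), which runs from 250 bases before to 50 bases after a start site. They are shown because the coding pair was so alike while its UMI totals were so unequal. Bases without an identical partner in the alignment are in capitals, for Ly6c1 at chr15:75048788-75049087 and Ly6c2 at chr15:75111922-75112221, both on the minus strand.
Ly6c1: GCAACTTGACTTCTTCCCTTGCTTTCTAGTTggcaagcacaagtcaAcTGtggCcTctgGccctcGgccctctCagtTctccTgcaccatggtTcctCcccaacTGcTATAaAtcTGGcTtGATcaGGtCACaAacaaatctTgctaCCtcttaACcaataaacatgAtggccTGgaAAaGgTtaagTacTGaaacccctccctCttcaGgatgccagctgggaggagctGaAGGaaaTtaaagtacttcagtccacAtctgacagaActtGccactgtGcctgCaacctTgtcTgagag
Ly6c2: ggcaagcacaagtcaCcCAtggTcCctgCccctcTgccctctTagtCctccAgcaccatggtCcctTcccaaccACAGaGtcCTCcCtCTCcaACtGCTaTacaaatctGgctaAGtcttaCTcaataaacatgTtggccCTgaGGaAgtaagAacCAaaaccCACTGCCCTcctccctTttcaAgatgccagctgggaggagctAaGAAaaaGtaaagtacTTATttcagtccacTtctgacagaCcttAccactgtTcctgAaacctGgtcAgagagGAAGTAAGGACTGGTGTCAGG
The alignment of these windows held 208 matches in 282 columns (73.8%), with 58 mismatches and 16 gap columns, so the promoters were less alike than the coding sequences. The interferon-stimulated response element core (GAAA, any 2 bases, GAAA) and the gamma-activated site TTCNNNGAA were searched on both strands. Neither occurred in any of the 4 windows listed for Ly6c1 and Ly6c2. Of 32851 promoters of the same length, 3.44% held the first and 8.30% the second, so both are uncommon in such windows.

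The PyMT table held 12464 barcodes and 55547926 unique molecular identifiers (UMIs, counted transcripts), and for KPC there were 10236 barcodes and 44441942 UMIs. Barcodes passed a filter of 500 or more detected genes and less than 10% of UMIs from mitochondrial genes, which left 11744 PyMT cells at a median of 3978 UMIs and 9591 KPC cells at 3141. Of the kept barcode sequences, 151 occurred in both libraries. Each cell was placed in the first class whose 2 marker genes together reached a set UMI sum. In order, these were Krt8 with Krt18 at 5, fibroblast (Col1a1, Col1a2) at 10, lymphatic (Mmrn1, Prox1) at 3, pericyte (Notch3, Higd1b) at 2, venule (Ackr1, Selp) at 3, artery (Gja5, Sema3g) at 2, tip (Apln, Angpt2) at 3 and capillary (Car4, Cd300lg) at 2, with the remainder called other. The blood endothelial classes (capillary, artery, venule and tip) held 5074 PyMT and 3344 KPC cells, and 10.5% of PyMT and 7.59% of KPC cells met more than 1 rule. In PyMT such cells were 189 of 360 venule, 797 of 1991 tip, 16 of 27 pericyte and 169 of 633 lymphatic cells. In KPC they were 142 of 640 venule, 184 of 1302 tip, 29 of 119 pericyte and 273 of 802 lymphatic cells. Genes that the rules did not use matched the fibroblast, lymphatic, pericyte and artery names in both libraries. Of the 4 venule check genes 2 were highest in the venule class of PyMT and 3 in that of KPC, and of the 4 tip check genes 2 and 3 were highest in the tip class. They did not match the capillary name in PyMT, where 0 of the 4 check genes were highest, against 4 of 4 in KPC. Rgcc, a capillary gene, stood at 655 CPM (UMIs of the gene per 1000000 UMIs of the class) in PyMT capillary cells and 1394 CPM in KPC capillary cells. The Krt8/Krt18 class was named by its rule, because in PyMT it held Epcam, an epithelial adhesion gene, at 19.7 CPM and in 3.43% of cells, against 170 CPM in KPC. Cells with EpCAM protein had been depleted before the sort of both libraries.

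Ly6c1 was highest in arteries and capillaries in both libraries, but in a different order. In PyMT its level was 1608 CPM (1497 to 1724) in 126 artery cells, 1012 CPM (994 to 1029) in 2597 capillary cells, 669 CPM (628 to 711) in 360 venule cells and 587 CPM (574 to 601) in 1991 tip cells. In KPC it was 2707 CPM (2653 to 2761) in 1297 capillary cells, 2319 CPM (2156 to 2491) in 105 artery cells, 703 CPM (673 to 734) in 640 venule cells and 647 CPM (630 to 665) in 1302 tip cells. Venules thus lay below capillaries in both, and the step was far larger in KPC. In the cells with no class, Ly6c1 stood at 752 CPM in PyMT and 1712 CPM in KPC. The lowest levels were 115 CPM in Krt8/Krt18 cells and 168 CPM in lymphatic cells of PyMT, and 189 CPM in lymphatic and 304 CPM in Krt8/Krt18 cells of KPC. The intervals of neighbours in the order of 9 classes overlapped only for capillary and pericyte cells in PyMT, and for no neighbours in KPC. They cover counting error only, and counts varied among cells by more than that, so a gap between intervals does not settle an order.

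Ly6a was highest in arteries in both libraries, at 2973 CPM (2822 to 3131) in PyMT and 3787 CPM (3578 to 4005) in KPC. Capillary cells followed, at 1342 CPM (1322 to 1362) in PyMT and 2251 CPM (2202 to 2300) in KPC. Venule cells held 1053 CPM in PyMT and 1023 CPM in KPC, and tip cells 1113 CPM and 985 CPM. The venule and tip intervals overlapped in both libraries, so those classes could not be ordered. Fibroblasts reached 848 CPM in PyMT and 1445 CPM in KPC. Krt8/Krt18 cells showed the widest gap between libraries, at 269 CPM in PyMT and 1382 CPM in KPC. Lymphatic cells held Ly6a at 240 CPM (222 to 259) in PyMT, where the interval overlapped that of Krt8/Krt18 cells, and at 183 CPM in KPC, the lowest there.

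Ly6e was the flattest of the 3 abundant members. In PyMT it ranged from 455 CPM (346 to 589) in 28 fibroblasts to 1266 CPM (1226 to 1307) in 379 Krt8/Krt18 cells, and artery, capillary, pericyte, venule and other cells formed a chain of overlapping intervals between 1126 CPM and 1010 CPM. In KPC it ranged from 575 CPM (545 to 606) in 443 fibroblasts to 1492 CPM (1452 to 1532) in capillary cells. Lymphatic cells, low for Ly6c1 and Ly6a, held Ly6e at 926 CPM in PyMT and 741 CPM in KPC. The Krt8/Krt18 class was highest of 9 for Ly6e in PyMT, while in KPC it stood next to last at 716 CPM.

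Ly6c2 was nearly absent. All kept cells together held 84 UMIs in PyMT and 83 UMIs in KPC. Across the 9 classes its highest levels were 2.52 CPM in PyMT capillary cells (32 UMIs) and 4.26 CPM in the KPC cells with no class (48 UMIs), and it had 0 UMIs in PyMT fibroblasts and pericytes and in KPC lymphatic, pericyte, venule and artery cells. A count of 0 in the 2928478 UMIs of KPC venule cells allows up to 1.02 CPM, taking 3 counts as the limit.

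**Figure D1:**
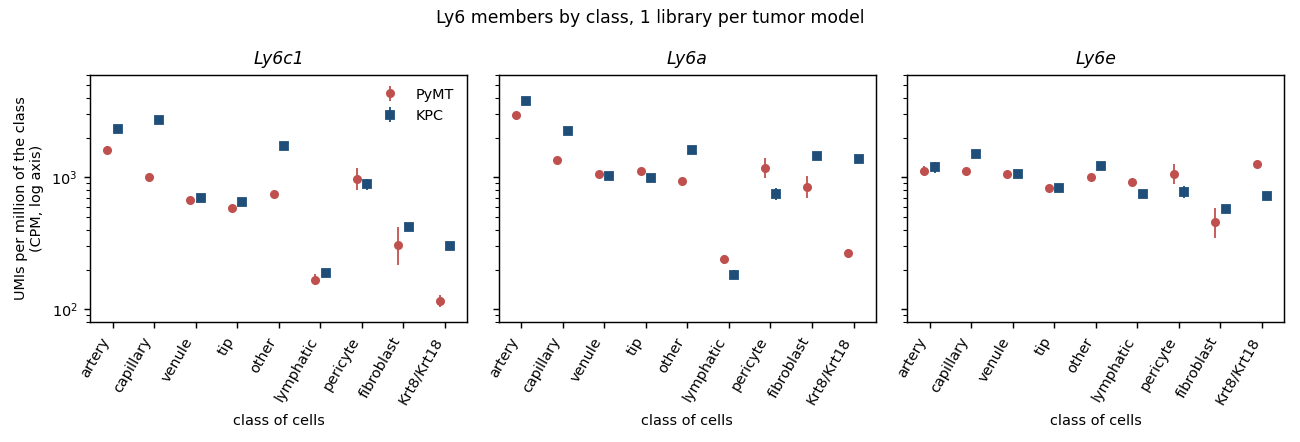
Level of Ly6c1, Ly6a and Ly6e in CPM of each class (log axis) for the PyMT library (circles) and the KPC library (squares), with exact 95% intervals of counting error. Ly6a spreads from lymphatic to artery cells in both libraries. Ly6c1 spreads from 115 CPM in PyMT Krt8/Krt18 cells to 2707 CPM in KPC capillary cells, and Ly6e stays between 455 and 1492 CPM.

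Depth differed between classes, so cells were also thinned to 2000 UMIs each, leaving out shallower cells. The share of capillary cells with a Ly6c1 UMI was 90.2% in PyMT at a median of 4254 UMIs and 98.1% in KPC at 1879 UMIs, and 76.3% and 91.8% after thinning, which left out 230 and 700 cells. The lowest thinned share was 13.0% in PyMT Krt8/Krt18 cells (39.6% as counted, median 6939 UMIs, 2 cells left out), a class whose rule uses keratin genes. Lymphatic cells lay near it, at 17.8% in PyMT (25.9% as counted, median 3462 UMIs, 144 left out) and 20.7% in KPC (27.3%, 3497 UMIs, 187 left out). Thinned capillary cells of PyMT held from 0 to 21 Ly6c1 UMIs with a median of 2, and those of KPC from 0 to 24 with a median of 4. Their variance was 2.29 and 2.78 times the mean. For Ly6e the same ratio was 1.48 in PyMT and 1.32 in KPC, so Ly6e varied less among capillary cells relative to its mean than Ly6c1 in both libraries.

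Among capillary cells the members that moved together most from cell to cell were Ly6c1 and Ly6a. After thinning, the Pearson r of their log UMIs was 0.41 over 2367 PyMT cells and 0.56 over 597 KPC cells. For Ly6c1 with Ly6e it was 0.23 and 0.37, and for Ly6c1 with Gpihbp1, which carries lipoprotein lipase to the capillary lumen, 0.09 and 0.22. This order did not hold in 67 KPC artery cells, where Ly6c1 had an r of 0.44 with Ly6e and 0.28 with Ly6a, or in 1237 KPC tip cells, where both were 0.29. These are descriptions of cells that share 1 library each, at a depth where most cells hold few UMIs of any member.

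The first comparison asked how each class stood against capillary cells of its own library, the axis from capillary to venule being the study's question. A gene was compared where both classes together held at least 20 UMIs, which let Ly6c1, Ly6a and Ly6e into all 25 comparisons made here and Ly6c2 into 13. In KPC venule cells 2 of the members compared were at least 2-fold from their capillary level, both lower. Of all genes compared, 9.88% were, in either direction. Ly6c2, at 0 UMIs in venule and 10 in capillary cells, was too low to compare there. Ly6c1 had a log2 ratio of -1.95 (-2.01 to -1.88), Ly6a of -1.14 (-1.20 to -1.08), and Ly6e stayed inside 2-fold at -0.48. In PyMT venule cells 0 members passed 2-fold, where 9.35% of genes did, and the ratios were -0.60 for Ly6c1, -0.35 for Ly6a and -0.09 for Ly6e. The check genes did not match the capillary name in PyMT, so the reference class there may not be capillary. Every PyMT ratio to capillary cells, here and below, carries that limit. Of the 360 PyMT venule cells, 189 also met another rule. The venule levels themselves were near each other in the libraries, and the capillary levels were not.

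Tip cells, which lead vessel sprouts, gave a like picture. In KPC 2 members were at least 2-fold from capillary cells (11.2% of genes), both lower, Ly6c1 at -2.06 (-2.11 to -2.02) and Ly6a at -1.19 (-1.24 to -1.15), with Ly6e at -0.85. In PyMT the ratios were -0.78, -0.27 and -0.42, and the member past 2-fold (2.73% of genes) was Ly6c2, with 12 UMIs against 32, of which 11 came from 1 capillary cell. So in PyMT no member with more than a few UMIs per class set tip cells 2-fold apart from the capillary class.

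Arteries stood out through Ly6a. In PyMT 1 member was at least 2-fold from capillaries (17.5% of genes), Ly6a higher at 1.15 (1.07 to 1.22). In KPC Ly6a reached 0.75 and 0 members passed 2-fold (17.7% of genes did). Ly6c1 lay above capillaries in PyMT arteries (0.67) and below them in KPC arteries (-0.22), and the latter value turned to 0.31 when the class rules were applied in reversed order.

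Lymphatic cells lay far below capillary cells for Ly6c1 and Ly6a in both libraries. In PyMT 3 members were at least 2-fold from capillary cells, all lower, against 17.5% of genes, with Ly6c1 at -2.59 (-2.73 to -2.46) and Ly6a at -2.48 (-2.60 to -2.37), and Ly6c2 at 1 UMI against 32. In KPC 3 members were 2-fold lower, against 20.8% of genes, with Ly6c1 at -3.84 (-3.96 to -3.73), Ly6a at -3.62 (-3.74 to -3.50) and Ly6e at -1.01 (-1.08 to -0.94). The KPC value for Ly6e moved between -1.17 and -0.65 over the processing alternatives, so its side of 2-fold was not stable.

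The low Ly6c1 and Ly6a of lymphatic cells were lower still in lymphatic cells with 0 UMIs of the 4 capillary check genes, a split added after seeing the data. Lymphatic cells as a whole held Btnl9 at 101% of its blood endothelial level in PyMT and 45.4% in KPC, and Aqp1 at 40.5% and 41.1%. Gpihbp1 stood at 26.7% and 24.1%, and Rgcc at 20.0% and 13.6%. Whether the split removed capillary RNA or parted lymphatic cells by their own expression was not tested. Among 249 PyMT lymphatic cells with 0 UMIs of Rgcc, Gpihbp1, Aqp1 and Btnl9 after thinning, Ly6c1 was 72.3 CPM and Ly6a 112 CPM, against 381 CPM and 522 CPM in the 67 cells with 3 or more. Among 271 such KPC cells both were 55.4 CPM, against 542 CPM and 475 CPM in 118 cells with 3 or more. Ly6e did not follow, at 950 CPM and 963 CPM in PyMT and 773 CPM and 835 CPM in KPC. At 0 UMIs of the 4 genes the log2 ratio to capillary cells was -3.88 in PyMT and -5.42 in KPC for Ly6c1, and -0.30 and -0.85 for Ly6e.

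Krt8/Krt18 cells, fibroblasts and pericytes were set against capillary cells in the same way. In PyMT Krt8/Krt18 cells 3 members passed 2-fold (29.1% of genes), Ly6c1 at -3.13 (-3.29 to -2.98), Ly6a at -2.32 (-2.43 to -2.22) and Ly6c2 at 1 UMI against 32, while Ly6e was at 0.18. In KPC Krt8/Krt18 cells 2 passed (43.8% of genes), Ly6c1 at -3.16 (-3.21 to -3.10) and Ly6e at -1.06 (-1.11 to -1.01), with Ly6a at -0.70. Ly6c1 was thus about equally far below capillaries in both libraries, and Ly6a was not. In fibroblasts 2 members passed in each library (29.9% of genes in PyMT, 35.4% in KPC), Ly6c1 at -1.72 and -2.68 and Ly6e at -1.29 and -1.38. In pericytes 0 passed in PyMT (23.2% of genes) and 2 in KPC (17.4%), Ly6c1 at -1.61 and Ly6a at -1.59. Without cells meeting more than 1 rule, the PyMT pericyte ratio moved from -0.05 to -0.56 for Ly6c1 and from -0.19 to -0.92 for Ly6a. In the cells with no class 0 passed in either library (6.42% and 6.62% of genes).

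The second comparison set the same class side by side in both tumor models. In capillary cells 1 of the 4 members was at least 2-fold apart, higher in KPC, against 15.9% of all genes in either direction. Ly6c1, at 2707 CPM in KPC and 1012 CPM in PyMT, had a log2 ratio of 1.42 (1.38 to 1.46), Ly6a of 0.75 and Ly6e of 0.42, while the median of all genes was 0.14. Over the processing alternatives the Ly6c1 ratio ranged from 1.16 to 1.64. The 14 endothelial genes kept as a reference summed to 9373 CPM in PyMT and 17039 CPM in KPC capillary cells, but they did not move as one. Plvap, a diaphragm protein of fenestrated vessels, was 1627 CPM in PyMT and 4605 CPM in KPC, Cdh5 was 705 and 709 CPM, and Cldn5, a tight junction gene, was 336 and 156 CPM. The capillary check genes were higher in KPC, with Aqp1 at 387 and 1348 CPM and Btnl9 at 25.7 and 193 CPM. Median depth was 4254 UMIs in PyMT and 1879 UMIs in KPC. The capillary rule is a fixed UMI sum, so it asked for a larger share of the UMIs of the shallower KPC cells. The part of these differences in the Ly6c1 ratio was not tested.

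Where the capillary rule began, Ly6c1 climbed with the rule's own UMIs in KPC. Cells with no class and 0 UMIs of Car4 and Cd300lg held 1461 CPM, those with 1 UMI, just outside the rule, 2312 CPM, and capillary cells with 2 UMIs, just inside it, 2519 CPM. In PyMT the levels were 696, 894 and 1030 CPM. Further inside the class KPC stood at 2644 CPM at 3 to 4 UMIs, 3562 CPM at 5 to 9 and 2583 CPM in the 5 cells with 10 or more. PyMT did not climb there, at 1055, 1010 and 908 CPM. KPC lay above PyMT at each of these steps. The steps are raw UMIs, and cells with 2 UMIs had a median depth of 3772 UMIs in PyMT and 1866 in KPC. The same step is therefore not the same marker share in both libraries.

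Venule, lymphatic, pericyte, artery and fibroblast cells held 0 members past 2-fold between the models. The shares of all genes past 2-fold in either direction were 6.33%, 4.48%, 15.0%, 9.5% and 18.8% in that order. In venules Ly6c1 was at 0.07 (-0.04 to 0.18), Ly6a at -0.04 and Ly6e at 0.02, so the venule levels of all 3 abundant members lay close together across the models. In tip cells 1 member was higher in KPC (7.49% of genes), namely Ly6c2 at 19 UMIs against 12. Of these, 8 came from 2 KPC cells and 3 from 1 PyMT cell. In the cells with no class 2 were higher (15.2% of genes). These were Ly6c1 at 1.19 (1.16 to 1.22), a value between 0.80 and 1.52 over the alternatives, and Ly6c2 at 48 UMIs against 35. Of those Ly6c2 UMIs, 23 in KPC and 3 in PyMT lay in the immune set described below.

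In Krt8/Krt18 cells the members differed between models in both directions. Ly6a was 1382 CPM in KPC and 269 CPM in PyMT, a log2 ratio of 2.36 (2.26 to 2.47), and Ly6c1 was 304 and 115 CPM, a ratio of 1.40 (1.23 to 1.56). Ly6e ran the other way, at 716 CPM in KPC and 1266 CPM in PyMT, a ratio of -0.82. Thus 2 of the members compared were at least 2-fold higher in KPC, against 28.1% of genes in either direction. Ly6c2, at 4 UMIs in KPC and 1 in PyMT, was too low to compare. The epithelial check genes of this class also differed, Krt19 standing at 2789 CPM in KPC and 1.02 CPM in PyMT, so the class differed between libraries in genes other than the members.

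**Figure D2:**
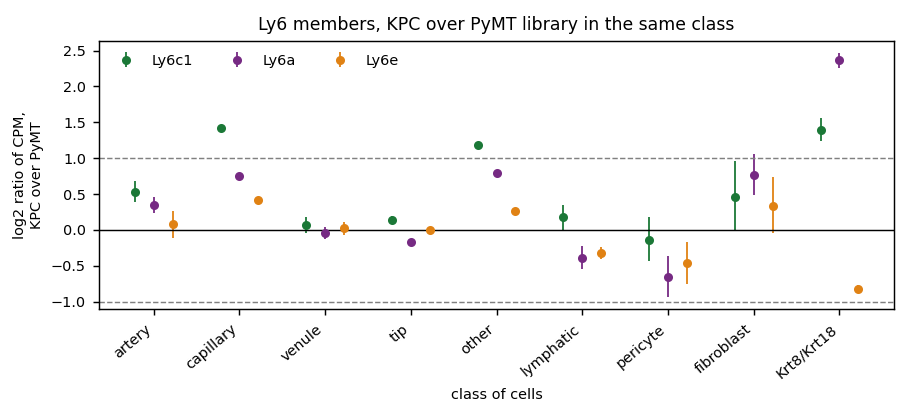
Log2 ratio of KPC over PyMT for Ly6c1, Ly6a and Ly6e in each class, with exact 95% intervals of counting error and lines at 2-fold. Ly6c1 stands at 1.42 in capillary and 1.19 in other cells and near 0 in venule cells, and Ly6a stands at 2.36 in Krt8/Krt18 cells.

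A further question was how the levels outside endothelium compare with RNA from endothelium carried into other droplets. RNA from 1 source keeps its genes in 1 ratio, so each level was expressed as a percent of the level over the blood endothelial classes and set beside 14 endothelial genes. In PyMT Krt8/Krt18 cells the endothelial genes stood at 11.9% to 25.2% of their blood endothelial level. Ly6c1 stood at 14.4% and Ly6a at 21.5%, inside that range, and Ly6e at 129%. So 1 of the 4 members was above every endothelial gene, where 90.1% of all genes were.

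In KPC Krt8/Krt18 cells the endothelial genes stood at 4.03% to 20.7%, with a median of 4.86%. Ly6c1 at 25.9%, Ly6e at 69.2% and Ly6a at 103% were all above them. Thus 3 of the 4 members were above every endothelial gene, against 88.6% of all genes. In fibroblasts Ly6c1 and Ly6a stood higher relative to blood endothelium than in Krt8/Krt18 cells of the same library, and Ly6e lower, with overlapping intervals for Ly6a in KPC. The endothelial genes reached at most 36.0% in PyMT and 17.9% in KPC, while Ly6a stood at 68.0% and 107%, Ly6e at 46.5% and 55.5%, and Ly6c1 at 38.1% and 35.9%. The count above every endothelial gene was 3 in PyMT (66.4% of all genes) and 4 in KPC (93.9%), the latter including Ly6c2 on 2 UMIs. In PyMT the intervals were 27.1% to 52.1% for Ly6c1, 55.7% to 82.1% for Ly6a and 35.3% to 60.1% for Ly6e. All 3 overlapped that of Cldn5, the highest endothelial gene there (20.2% to 59.5%). Since most genes lay above the endothelial range in these classes, the counts were not particular to the members.

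Pericytes differed from these classes. Their endothelial genes stood at a median of 82.2% in PyMT and 57.4% in KPC, and up to 122% and 79.8%, so the class carried much endothelial RNA. Ly6c1, Ly6a and Ly6e stood at 121%, 94.3% and 109% in PyMT and at 75.6%, 55.4% and 74.5% in KPC. No member was above every endothelial gene in either library, where 36.2% and 67.0% of all genes were. Lymphatic cells, which are endothelial themselves, held Ly6c1 at 20.8% and 16.1% of the blood endothelial level and Ly6a at 19.2% and 13.6%, near the lowest of the 14 endothelial genes, which stood at 22.9% (20.3 to 25.7) in PyMT and 16.3% in KPC.

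**Figure D3:**
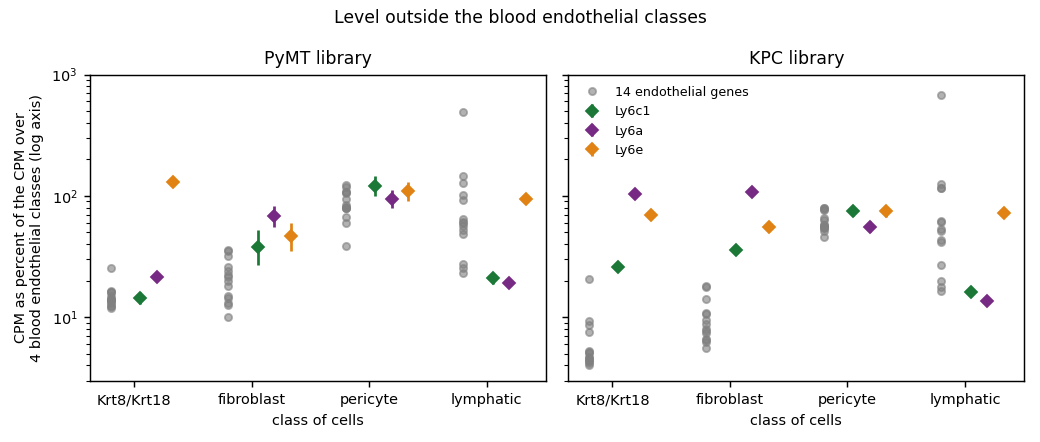
Level in classes outside the blood endothelial classes as percent of the level over capillary, artery, venule and tip cells (log axis), for 14 endothelial genes (circles) and for Ly6c1, Ly6a and Ly6e (diamonds, with exact 95% intervals). In PyMT Krt8/Krt18 cells Ly6c1 (14.4%) lies among the endothelial genes, and in KPC fibroblasts Ly6a (107%) lies above all of them.

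The same data can be read as member UMIs per 100 endothelial-gene UMIs. In PyMT blood endothelial cells these were 9.05 for Ly6c1, 14.03 for Ly6a and 11.01 for Ly6e, and in KPC 9.48, 10.9 and 8.36. PyMT Krt8/Krt18 cells held 8.89 Ly6c1 UMIs per 100 (7.94 to 9.94), an interval that includes the blood endothelial value, but 20.7 for Ly6a and 97.5 for Ly6e. KPC Krt8/Krt18 cells held 39.4, 179 and 92.9, which is 4.15, 16.5 and 11.1 times the blood endothelial ratios. KPC fibroblasts held 36.9, 127 and 50.4, or 3.90, 11.6 and 6.03 times. Pericytes held 12.7, 15.4 and 13.9 in PyMT, or 1.41, 1.10 and 1.27 times. In KPC pericytes held 12.1, 10.2 and 10.5, or 1.28, 0.94 and 1.26 times. Ly6c1 in PyMT Krt8/Krt18 cells was therefore at the pooled endothelial ratio, while Ly6a (1.47 times) and Ly6e (8.85 times) were above it. That Ly6a, at 21.5% of its blood endothelial level, still lay inside the range of the 14 endothelial genes taken singly. In KPC Krt8/Krt18 cells and fibroblasts Ly6c1, Ly6a and Ly6e were all in excess of the pooled ratio.

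Cells were also grouped by their endothelial UMIs after thinning to 2000 UMIs, where a count of 0 need not mean that the cell held none. Before thinning, only 37 PyMT and 32 KPC Krt8/Krt18 cells and 64 KPC fibroblasts had 0 UMIs of the 14 genes. Among 145 PyMT Krt8/Krt18 cells with 0 UMIs of the 14 genes, Ly6c1 was 58.6 CPM (34.1 to 93.9), Ly6a 183 CPM and Ly6e 1379 CPM, against 333, 433 and 1367 CPM in the 15 cells with 11 or more. Ly6c1 and Ly6a were thus higher where endothelial RNA was higher, and Ly6e was not. Among 337 KPC Krt8/Krt18 cells with 0 such UMIs, Ly6c1 was 220 CPM (186 to 258), Ly6a 1215 CPM (1133 to 1301) and Ly6e 734 CPM, against 870, 1196 and 848 CPM in 23 cells with 11 or more. Among 141 KPC fibroblasts with 0, Ly6c1 was 415 CPM (343 to 497), Ly6a 1929 CPM (1770 to 2098) and Ly6e 546 CPM. Fibroblast Ly6a was 950.0 CPM in the 50 cells with 3 to 5 endothelial UMIs and 1563 CPM (1159.7 to 2060.0) in the 16 with 11 or more. The Ly6a of KPC Krt8/Krt18 cells and fibroblasts was therefore no lower in cells with 0 endothelial UMIs after thinning than in cells with many.

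Pericytes and the immune set of KPC showed the opposite. The 27 pericytes with 5 or fewer endothelial UMIs held 2 UMIs of Ly6c1 and 2 of Ly6a (37.0 CPM each), and the 67 with 6 or more held 1522 CPM and 1261 CPM. Ly6e was 593 CPM and 910 CPM. In the immune set, cells of no class with at least 3 UMIs of Ptprc, Tyrobp, Fcer1g and Cd52, the 14 cells with 5 or fewer held Ly6c1 at 35.7 CPM, Ly6a at 71.4 CPM and Ly6e at 786 CPM, against 1517, 1033 and 1100 CPM in 30 cells with 6 or more. In both groups Ly6c1 and Ly6a came to 1 or 2 UMIs each in the cells with 5 or fewer endothelial UMIs, and Ly6e to 32 in pericytes and 22 in the immune set. In PyMT only 3 pericytes had 5 or fewer endothelial UMIs, too few to read.

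**Figure D4:**
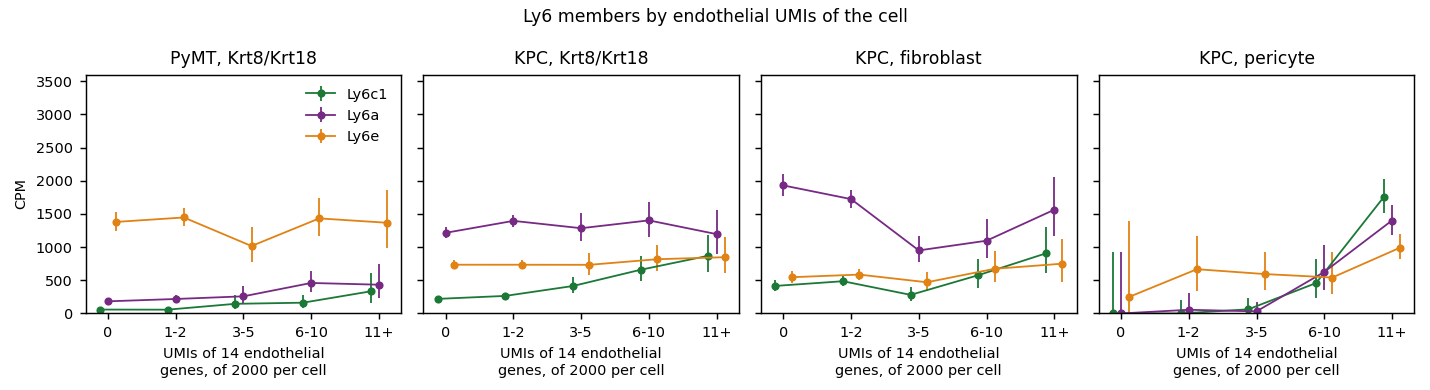
Level of Ly6c1, Ly6a and Ly6e (CPM, cells thinned to 2000 UMIs) by the number of endothelial-gene UMIs in the cell, for PyMT and KPC Krt8/Krt18 cells, KPC fibroblasts and KPC pericytes, with exact 95% intervals. Ly6a of KPC Krt8/Krt18 cells is 1215 CPM at 0 UMIs and 1196 CPM at 11 or more, and Ly6c1 of PyMT Krt8/Krt18 cells goes from 58.6 to 333 CPM.

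The paralog pair was read as Ly6c2 UMIs per 100 Ly6c1 UMIs. In blood endothelial cells this was 0.211 (0.155 to 0.281) in PyMT and 0.161 (0.108 to 0.232) in KPC. The KPC immune set stood apart at 10.2 (6.35 to 15.7), with 23 Ly6c2 UMIs, or 107 CPM. The PyMT immune set held 3 Ly6c2 UMIs, 11.4 CPM. Its markers went against the name, since Fcer1g was in 98.1% of its 52 cells but Ptprc, the CD45 gene, in 7.69% and Tyrobp in 19.2%, while Cdh5 was in 80.8% and Pecam1 in 82.7%. Cells with CD45 protein had been depleted before the sort. Of the members, 1 in the PyMT and 3 in the KPC immune set were above every endothelial gene as percent of the blood endothelial level, as were 11.7% and 48.0% of all genes. Of 72 PyMT cells with a Ly6c2 UMI, 68 also held Ly6c1, and of 51 such KPC cells 46 did. With or without Ly6c2, 86.8% of PyMT and 86.9% of KPC cells of the blood endothelial classes held a Ly6c1 UMI. The 9 KPC cells with at least 3 Ly6c2 UMIs held 38 of the library's 83, and all 9 held Fcer1g and 8 held Tyrobp, both genes of myeloid signalling, with Lyz2, a myeloid lysozyme, in 6. Endothelial genes were there as well, with Pecam1 in 7 of the 9 and Cdh5, a junction gene of endothelium, in 3. The 2 PyMT cells with as many both held Cdh5 and Pecam1, Ptprc, Tyrobp, Fcer1g and Cd52 were each in 1 of them, and 1 had 11 Ly6c2 UMIs. How reads shared by the pair were counted was not examined. A low level of Ly6c2 in endothelium and Ly6c1 reads assigned to Ly6c2 therefore cannot be told apart.

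Over the 4 blood endothelial classes together, cells with more interferon-induced transcripts held more of all 3 abundant members. Cells were thinned and grouped by the UMIs of 12 interferon-induced genes (Isg15, Ifit1, Irf7, Bst2 and others, none of them a member). In PyMT, from the 1181 cells with 0 such UMIs to the 363 with 6 or more, Ly6a went from 1007 to 2300.3 CPM, a log2 ratio of 1.19 (1.10 to 1.28), Ly6c1 from 692 to 1339 CPM (0.95) and Ly6e from 837 to 1616 CPM (0.95). In KPC, from 466 to 289 cells, Ly6c1 went from 810.1 to 1604 CPM (0.99), Ly6a from 1089 to 2088 CPM (0.94) and Ly6e from 819.7 to 1489.6 CPM (0.86). Of the 3 members compared, 1 passed 2-fold in PyMT, where 7.12% of genes did in either direction, and 0 in KPC, where 7.92% did. The levels between these ends were also in order, with Ly6a at 1226 and 1536 CPM in PyMT and 1172 and 1514 CPM in KPC.

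Within capillary cells alone the ratios were 0.83 for Ly6c1, 1.16 for Ly6a and 0.90 for Ly6e in PyMT, with 1 of 3 past 2-fold (8.8% of genes). In KPC they were 1.09, 1.13 and 0.86, with 2 of 3 past 2-fold (13.3% of genes). Tip cells gave 1.23 for Ly6c1 and 1.29 for Ly6a in PyMT, and 0.99 (0.75 to 1.24) and 1.02 in KPC. In venules Ly6a was at 0.82 and 0.90, but Ly6c1 was at 0.04 (-0.51 to 0.56) in PyMT and 0.33 (-0.07 to 0.72) in KPC. Arteries had few cells, and in the 7 KPC artery cells with 6 or more interferon UMIs against 16 with 0 the ratios were -0.63 (-1.44 to 0.13) for Ly6c1 and -0.45 (-0.97 to 0.05) for Ly6a. These artery intervals and those of Ly6c1 in venules included 0. In lymphatic cells Ly6e alone passed, going from 662 to 1636 CPM in PyMT, a ratio of 1.31 (0.98 to 1.63), and from 578 to 1289 CPM in KPC, a ratio of 1.16 (0.84 to 1.48). There 10.3% and 9.73% of genes passed. The lymphatic intervals of Ly6c1 and Ly6a included 0 in both libraries, running for Ly6c1 from -0.42 to 1.54 in PyMT and from -0.80 to 0.88 in KPC, and for Ly6a from -0.90 to 0.74 and from -0.64 to 1.02.

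**Figure D5:**
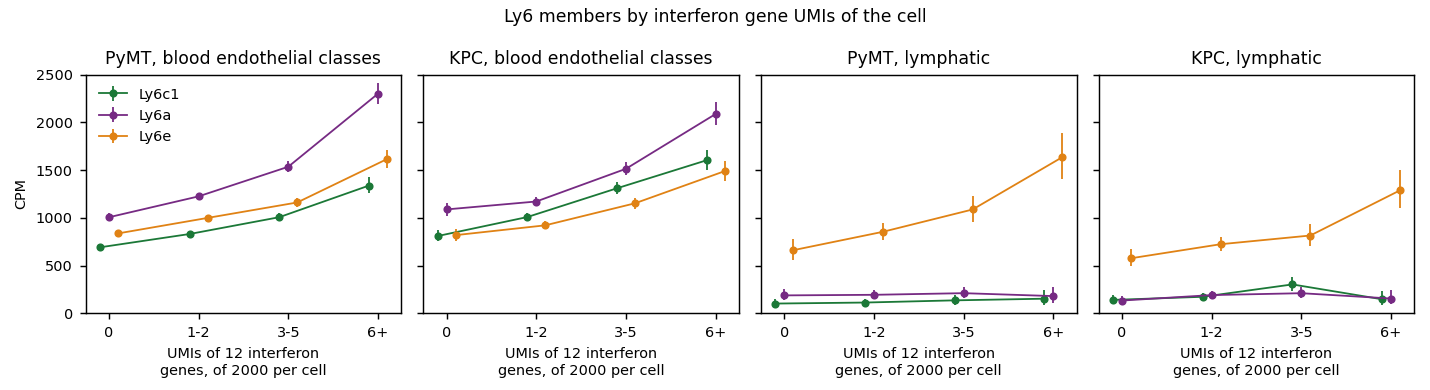
Level of Ly6c1, Ly6a and Ly6e in blood endothelial and lymphatic cells (CPM, cells thinned to 2000 UMIs) by the number of UMIs of 12 interferon-induced genes, per library, with exact 95% intervals. In blood endothelial cells Ly6a goes from 1007 to 2300.3 CPM in PyMT and from 1089 to 2088 CPM in KPC, and in lymphatic cells only Ly6e is high.

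Nr2f2 encodes COUP-TFII, the regulator of venous identity at the centre of the study. Blood endothelial cells with an Nr2f2 UMI differed little from those without in PyMT, where Ly6c1 was 891 and 870.4 CPM, a log2 ratio of 0.03 (-0.08 to 0.15). The paper reports an inverse correlation of Nr2f2 with Ly6c1 in PyMT cells, shown on imputed values, which is a measure unlike the counted UMIs here. By flow cytometry it also reports less Ly6C protein on tumor BECs after induced COUP-TFII expression. In mice induced in only part of the BECs, the marked BECs held less Ly6C than the unmarked. Neither library here came from induced mice. In KPC Ly6c1 was 930.3 CPM with and 1155 CPM without, a ratio of -0.31 (-0.44 to -0.18), Ly6a was at -0.19 and Ly6e at -0.04. Over the 4 classes together 0 of the 3 members compared passed 2-fold, where 6.97% and 8.37% of genes did. In KPC 151 venule and 48 capillary cells held an Nr2f2 UMI, and 382 and 549 did not, so the class mix differed. Its part in the pooled ratio was not tested. Among capillary cells Ly6c1 was at 0.03 (-0.12 to 0.18) in PyMT and -0.26 (-0.48 to -0.05) in KPC. It was at 0.07 (-0.27 to 0.40) and -0.16 (-0.41 to 0.08) in venules, and 0.27 (0.05 to 0.47) and 0.21 (-0.04 to 0.46) in tip cells. Outside these classes, KPC cells with no class had Ly6c1 at -0.61 (-0.75 to -0.47), Ly6a at -0.45 and Ly6e at -0.26. The PyMT cells with no class had Ly6c1 at -0.07 (-0.21 to 0.07). Lymphatic cells had Ly6c1 at -0.76 (-1.50 to -0.09) in PyMT and -0.01 (-0.42 to 0.39) in KPC. Their Ly6a was at -0.89 (-1.48 to -0.34) in PyMT and -0.23 (-0.67 to 0.19) in KPC. Cycling cells, with at least 2 UMIs of Mki67, Top2a, Birc5 and Ccnb1, held less Ly6c1 over the 4 classes together, 758 against 899 CPM in PyMT (-0.25, -0.33 to -0.16) and 817 against 1182 CPM in KPC (-0.53, -0.66 to -0.41). Ly6a was at -0.07 and -0.53, and Ly6e at -0.16 and 0.03. Within classes Ly6c1 was at -0.19 (-0.31 to -0.08) in PyMT and -0.74 (-0.96 to -0.53) in KPC capillary cells, while the intervals included 0 in venules (0.18 and -0.02) and tip cells (-0.11 and -0.06). Arteries held only 5 PyMT and 6 KPC cycling cells. There Ly6c1 was at -1.06 (-2.20 to -0.12) and -0.62 (-1.48 to 0.13). Ly6a was at -0.88 (-1.65 to -0.21) and -1.34 (-2.11 to -0.66) in these artery cells, and Ly6e at 0.61 and -1.03. Over the 4 classes together 0 of the 3 members compared passed 2-fold, where 8.03% and 13.1% of genes did.

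As a share of all member UMIs, Ly6c1 made up 29.1% (28.7 to 29.6) in PyMT and 42.0% (41.3 to 42.6) in KPC capillary cells. In arteries Ly6a made up 52.1% and 51.9%, nearly the same in both libraries. In PyMT Krt8/Krt18 cells 76.7% was Ly6e, and in KPC Krt8/Krt18 cells 57.5% was Ly6a. Members together were 0.347% of capillary UMIs in PyMT and 0.645% in KPC, and 0.571% and 0.729% of artery UMIs.

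Of 37 other LU domain genes listed, 35 were in the files and 5 reached 20 CPM in a class of at least 20 cells. Gpihbp1 was 1076 CPM in PyMT and 1363 CPM in KPC capillary cells and fell to 234 and 124 CPM in venules, a steeper step from capillary to venule than those of Ly6c1, Ly6a and Ly6e. Plaur, the urokinase receptor, was highest among the 9 classes in the KPC Krt8/Krt18 class at 215 CPM and in KPC tip cells at 187 CPM, against 107 CPM in PyMT Krt8/Krt18 and 97.4 CPM in PyMT tip cells. Cd59a, an inhibitor of complement, stood in arteries at 71.8 CPM (49.99 to 99.8) in PyMT and 105 CPM (72.8 to 147) in KPC, intervals that overlapped those of PyMT venules at 61.3 CPM and KPC fibroblasts at 87.6 CPM. Lynx1, a modulator of nicotinic receptors, stood in lymphatic cells at 21.7 CPM in PyMT and 17.8 CPM in KPC. Ly6k reached 33.6 CPM in PyMT pericytes on 4 UMIs. Of the remaining genes, 22 stayed under 20 CPM and 8 had 0 UMIs in every class.

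The genes most like each member over the 9 classes were ranked by the lower of the Pearson r values of log2(CPM + 10) in both libraries, among 7515 genes. For Ly6c1 they were Apbb2 (0.91), Rbp7 (0.89), Kitl (0.89), Rflnb (0.89) and Sertad1 (0.89). For Ly6a they were Ybx1 (0.77), Ly6c1 (0.76), Slc35b1 (0.76), Glul (0.76) and Anxa3 (0.75). For Ly6e they were Zfp326 (0.89), Map2k3 (0.87), Zfp68 (0.87), Sptlc1 (0.86) and Pdcd7 (0.86). The class profiles of Ly6c1 and Ly6a were alike in both libraries (0.95 and 0.76). That of Ly6e was unlike Ly6a in PyMT (0.01), with an r of 0.50 in KPC. Ly6e with Ly6c1 had an r of 0.19 in PyMT and 0.84 in KPC, the latter above that of Ly6c1 with Ly6a. These are descriptions over 9 points that share a library, its depth and its free RNA, and Ly6c2 was under the level filter.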

How the data were processed

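The deposited files were gene-by-barcode matrices of raw UMI counts that the authors made with Cell Ranger (3.0 per the submitters' notes, 3.0.2 in the matrix header) against mm10, 1 filtered matrix per tumor model. No column of an unmapped sample was used (0). The library kit was given as both v2 and v3 in the study's methods. From the counts, Python 3.11.15, numpy 2.4.6, scipy 1.17.1 and pandas 2.3.3 summed UMIs per class and library. Ratios of sums carry exact binomial or Poisson intervals, a sum of 0 was set to the limit of 3 counts, and shares carry Clopper-Pearson intervals. Coding and promoter sequences were aligned with biopython 1.88. No doublet caller was run. Cells meeting more than 1 rule were left out as an alternative instead. The members and gene lists were chosen with earlier results of these data known. All 4 members were named, as were LU domain genes reaching 20 CPM and the 5 genes most like each member. The study normalized with scran and assigned cell types by its own procedure, and no cell type table was used here, so names rest on the marker sums. The scripts were tested on simulated data.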

Additional observations from a re-analysis of the deposited data

Results flagged for a closer look

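The Krt8/Krt18 class stood on opposite sides of capillary cells for Ly6e in the libraries. The log2 ratio was 0.18 in PyMT and -1.06 in KPC, where Ly6e was 716 CPM in Krt8/Krt18 and 1492 CPM in capillary cells. The epithelial check genes of that class differed too, with Epcam at 19.7 CPM in PyMT and 170 CPM in KPC. The difference between the libraries was not tested.

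Ly6c1 in arteries relative to capillaries also went opposite ways, at 0.67 in PyMT and -0.22 in KPC. Over the processing alternatives the KPC ratio ran from -0.51, with class thresholds doubled, to 0.31, with the class rules in reversed order. This difference was not tested either, with 1 library per model.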

How the results depend on the processing

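Of 312 counts of members recomputed under 11 alternatives, 35 moved by over 1.5 times, and all 29 member ratios past 2-fold kept their sign, 21 of them staying past 2-fold throughout. In what follows the value as reported is in brackets, and "above" means members above every endothelial gene. Under the stricter barcode filter (1000 genes, 5% mitochondrial), KPC Krt8/Krt18, venule and tip cells each held 1 member past 2-fold from capillary (2), above was 1 in KPC pericytes (0) and 1 in the KPC immune set (3). With thresholds doubled, PyMT tip held 0 (1), tip between models 0 (1), and above was 2 in PyMT Krt8/Krt18 (1). In reversed class order, KPC venule held 1 (2), KPC artery 1 (0), lymphatic between models 1 (0), tip between models 0 (1), and above was 3 in PyMT Krt8/Krt18 (1) and 1 in KPC pericytes (0). Without cells meeting several rules, tip between models held 0 (1) and above was 3 in PyMT Krt8/Krt18 (1). Thinned to 2000 UMIs, PyMT tip held 0 (1), KPC Krt8/Krt18, venule and tip 1 each (2), tip between models 0 (1), and above was 1 in PyMT fibroblasts (3), 0 in the PyMT immune set (1), 1 in KPC pericytes (0) and 1 in the KPC immune set (3). As a mean over cells, PyMT venule held 1 (0), PyMT artery 2 (1), capillary between models 2 (1), and above was 3 in PyMT Krt8/Krt18 (1). Without the deepest 5% of cells, PyMT venule held 1 (0), KPC Krt8/Krt18 1 (2), and above was 2 in PyMT Krt8/Krt18 (1). Relative to the median gene, KPC Krt8/Krt18 held 1 (2). Against capillary cells alone, above was 2 in KPC fibroblasts (4) and 1 in the KPC immune set (3). The causes were not tested. Ly6c1 stayed at least 2-fold lower in KPC venule and tip cells and at least 2-fold higher in KPC than PyMT capillary cells under every alternative. Ly6a in KPC venule cells ranged from -1.43 to -0.64, Ly6a in KPC tip cells from -1.54 to -0.86 and Ly6e in KPC Krt8/Krt18 cells from -1.26 to -0.84. Thinning moved 54 of 72 shares of cells with a member UMI. No paired analysis was possible because each tumor model had 1 library. Depth limits Ly6c2, at most 48 UMIs in a class, and the 28 fibroblasts and 27 pericytes of PyMT.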

Other observations

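Cells of no class that held 0 UMIs of the 14 endothelial genes after thinning differed in members between the libraries. The 114 such PyMT cells held Ly6e at 1522 CPM, Ly6a at 118 CPM and Ly6c1 at 57.0 CPM. The 17 such KPC cells held Ly6a at 2118 CPM (1657 to 2667), Ly6e at 1000 CPM and Ly6c1 at 412 CPM. The Ly6a level of these KPC cells was near that of the 141 KPC fibroblasts with 0 endothelial UMIs, at 1929 CPM.

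Lymphatic cells of KPC that were cycling held Ly6a at 83.3 CPM against 203 CPM in the others, a log2 ratio of -1.29 (-2.01 to -0.64) on 21 and 199 UMIs. The PyMT ratio was 0.08 (-0.48 to 0.61), and the difference between the libraries was not tested.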
